A study of Homo sapiens with 24 samples.

Results

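The comparison described here is that of heavy with light polysomes in untreated MRC5 cells, human fibroblasts grown from lung. It rests on 6 of the 24 arrays of the study. These were the 3 control arrays of the high pool (fractions 15 to 23 of a sucrose gradient, at least 5 ribosomes per transcript) and the 3 control arrays of the low pool (fractions 10 to 14, 2 to 4 ribosomes). The members were chosen by their labels alone. Control cells received no hydrogen peroxide, and all cells were given cycloheximide before lysis. The other arrays of the study hold the untranslated pool (fractions 1 to 9), total RNA and the same 4 kinds of RNA after oxidative stress (OS, 0.2 mM hydrogen peroxide for 2 hours). Each gradient gave 1 high and 1 low array, and both lay on the same slide.

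A polysome is an mRNA with several ribosomes translating it at the same time. The number it carries depends on how often ribosomes start, how fast they move and how long the coding sequence is, since a short coding sequence has room for few ribosomes. Position in a gradient therefore reports ribosomes per mRNA and not the amount of protein made. The arrays were scaled to each other, so a value is the share of a transcript within a pool and not its amount. Each pool holds RNA of many cells, so differences between single cells are not seen.

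Of the 17535 catalog probes that form the mRNA category, 10463 were well above background on all 3 arrays of at least 1 pool and were tested. At a Benjamini-Hochberg adjusted p under 0.05 in limma, 3300 probes (31.5%) were higher in the high pool and 3208 (30.7%) were higher in the low pool. Of the 10940 lncRNA probes tested, 2676 (24.5%) were higher in the high pool and 3977 (36.4%) in the low pool. The balance of the 2 directions rests on the scaling, because probes higher in the high pool made up 50.7% of the mRNA calls here, 63.3% with both probe kinds normalised together, 63.7% after normexp, 71.2% with scaling to the 75th percentile and 28.3% without normalisation. For lncRNA probes the same shares were 40.2%, 26.9%, 26.5%, 32.2% and 5%. More lncRNA probes were well above background on the low arrays (25.6 to 33.4%) than on the high arrays (20.9 to 23.6%), and probes could enter through either pool. Among the lncRNA probes well above background on all 6 arrays, 2411 were higher in the high pool and 2382 in the low pool. Their median difference was 0.22 in place of -0.12, so the excess of probes toward the low pool was not seen there. As pairs with both probes so, 969 were called toward the low pool and 812 toward the high pool. Only the order of the transcripts relative to each other is therefore described below, with 1 probe per gene. Among the 7841 genes so defined, 2712 (34.6%) were higher in the high pool and 2429 (31.0%) in the low pool, and their median difference was 0.08 on the log2 scale.

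Between 58.4 and 65.6% of the catalog probes gave a signal clear of the background on each of the 6 arrays. The lowest correlation of mRNA log2 signal was 0.989 between high arrays and 0.992 between low arrays, against 0.891 to 0.929 between a high and a low array. All 4 fibroblast markers on the array (COL1A1, COL3A1, THY1 and LUM) were above background on all 12 control arrays. Of the markers of other cell types, KRT5 and VWF were above background on none and EPCAM on 2 of the 12, while SFTPC, CDH5 and PTPRC were on 11. Their part in the results was not tested.

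The transcripts farthest to the heavy side were led by CAP1 and LMNA. LMNA, which encodes the A-type lamins of the nuclear envelope (probe at chr1:156107471-156107530, GRCh37), had a normalised log2 signal of 17.79, 17.78 and 17.67 in the high pool and of 14.47, 14.63 and 14.21 in the low pool. CAP1, a regulator of actin turnover (probe at chr1:40536121-40536180), had 15.28, 15.02 and 14.87 in the high pool against 11.97, 11.74 and 11.46 in the low pool. The pools did not overlap for either gene, as the rule that picked them required. Of all tested mRNA probes, 77.6% had pools that did not overlap. The difference was 3.34 ± 0.15 (SE, adjusted p = 1.073e-07) for CAP1, a 10.1-fold ratio, and 3.31 ± 0.12 for LMNA.

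The other genes of the 10 farthest to the heavy side differed by 3.04 to 3.25. They were the MAGE family members MAGED1 and MAGED2, the nuclear import receptor KPNB1, the glycolytic enzyme ENO1, the La protein SSB, the ATPase VCP, the asparagine synthetase ASNS, and EDARADD. ENO1 rose from 14.64, 14.34 and 13.91 in the low pool to 17.52, 17.35 and 17.25 in the high pool. The probe of EDARADD showed the same difference as ENO1 (3.08 for both), and whether it reads a transcript other than EDARADD was not tested.

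The transcripts farthest to the light side were led by COPS9. COPS9, a small subunit of the COP9 signalosome (probe at chr2:241070297-241070356), had 12.17, 12.34 and 12.11 in the high pool and 15.46, 15.34 and 15.66 in the low pool. The difference was -3.28 ± 0.12 (SE, adjusted p = 7.961e-08), a 9.72-fold ratio toward the low pool. COX17, a copper chaperone for cytochrome c oxidase, had 11.06, 11.23 and 11.17 against 14.32, 14.09 and 14.48. The high arrays lay below the low arrays for both genes without overlap, as the same rule required.

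The other genes of the 10 farthest to the light side differed by -3.24 to -2.98. Among them were UQCR10, a subunit of respiratory complex III, COA3, an assembly factor of cytochrome c oxidase, the metallothionein MT1X, TMA7, HSBP1L1 and the thymosins TMSB15A and TMSB15B. TMSB15A and TMSB15B are near-identical copies, so their probes may read both. ITGAE, which encodes an integrin subunit, was the single gene of this set whose probe lay far along its transcript (position 3423), and it differed by -3.20. Whether this probe also reads an overlapping transcript was not tested.

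**Figure D1:**
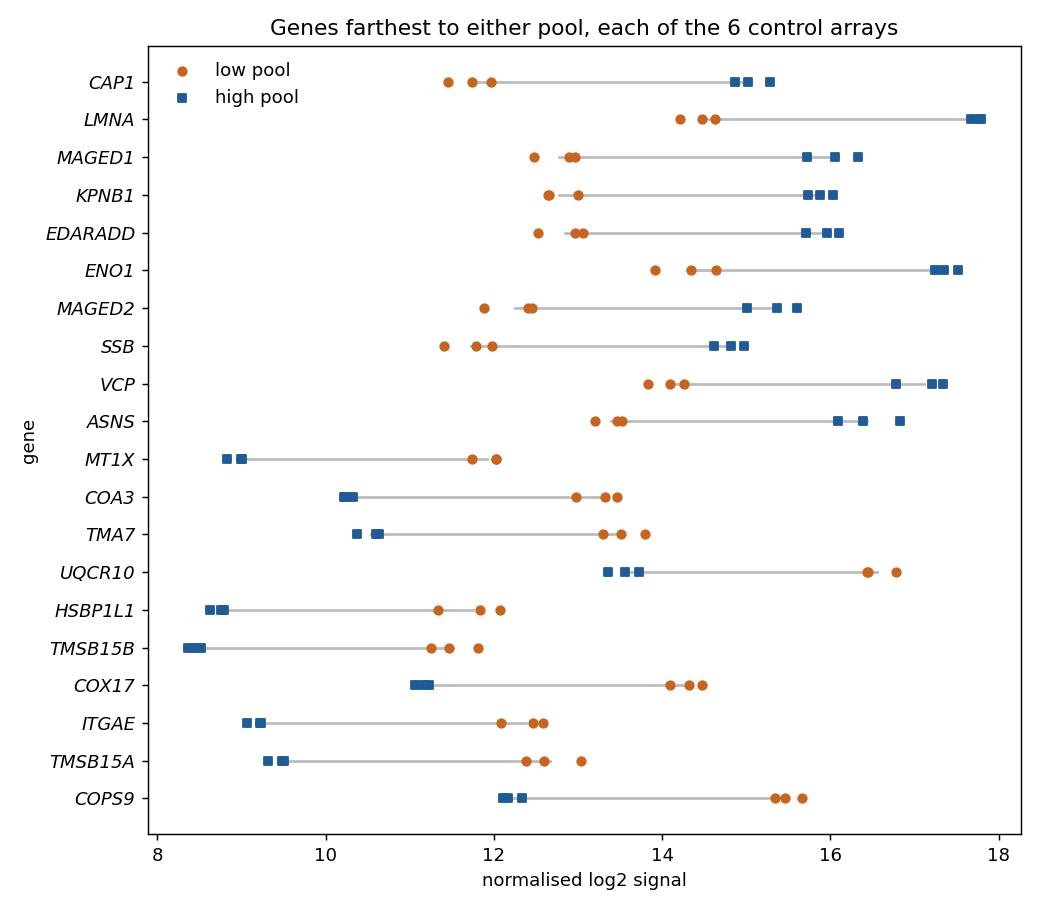
Normalised log2 signal (horizontal axis) of the 10 genes farthest to each pool (vertical axis) on the 3 high (squares) and 3 low (circles) control arrays, with grey lines joining the means. The pools do not overlap for any of the 20 genes, because the genes were required to be separated, and the differences run from -3.28 (COPS9) to 3.34 (CAP1).

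Length was examined next. Lengths of coding sequences were not used here. Instead, the last base of the probe in its transcript, called its reach here, was used as a lower bound on the length of the mRNA. Among the 7391 coding genes with a reach, Spearman's rho between reach and the difference was 0.437, 0.413 and 0.361 in the 3 gradients (mean 0.404 ± 0.039 SD, n = 3). This correlation is across genes, which are not independent replicates and share arrays. The rho of reach with level was 0.034, 0.024 and 0.002 on the high arrays and -0.148, -0.131 and -0.141 on the low arrays. The two-sided exact permutation test of 3 arrays against 3 gave p = 0.1, the smallest p such a test allows. It did not take account of the pairing of the arrays by gradient.

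Genes whose probe ended within the first 500 bases had a median difference of -1.10 ± 0.12 (SD over gradients, n = 3). Of these genes, 296 (63.3%) were higher in the low and 42 (8.97%) in the high pool. The median rose through every class, to -0.13 ± 0.08 for a reach of 1001 to 1500 bases and to 0.53 ± 0.02 for 3001 to 4000 bases. In the 533 genes with a reach over 6000 bases it was 0.75 ± 0.13, and 319 of them (59.8%) were higher in the high pool against 31 (5.82%) in the low pool. Taken apart, rho was 0.364 over the 6004 genes with a reach of up to 4000 bases and 0.066 over the 1387 beyond.

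**Figure D2:**
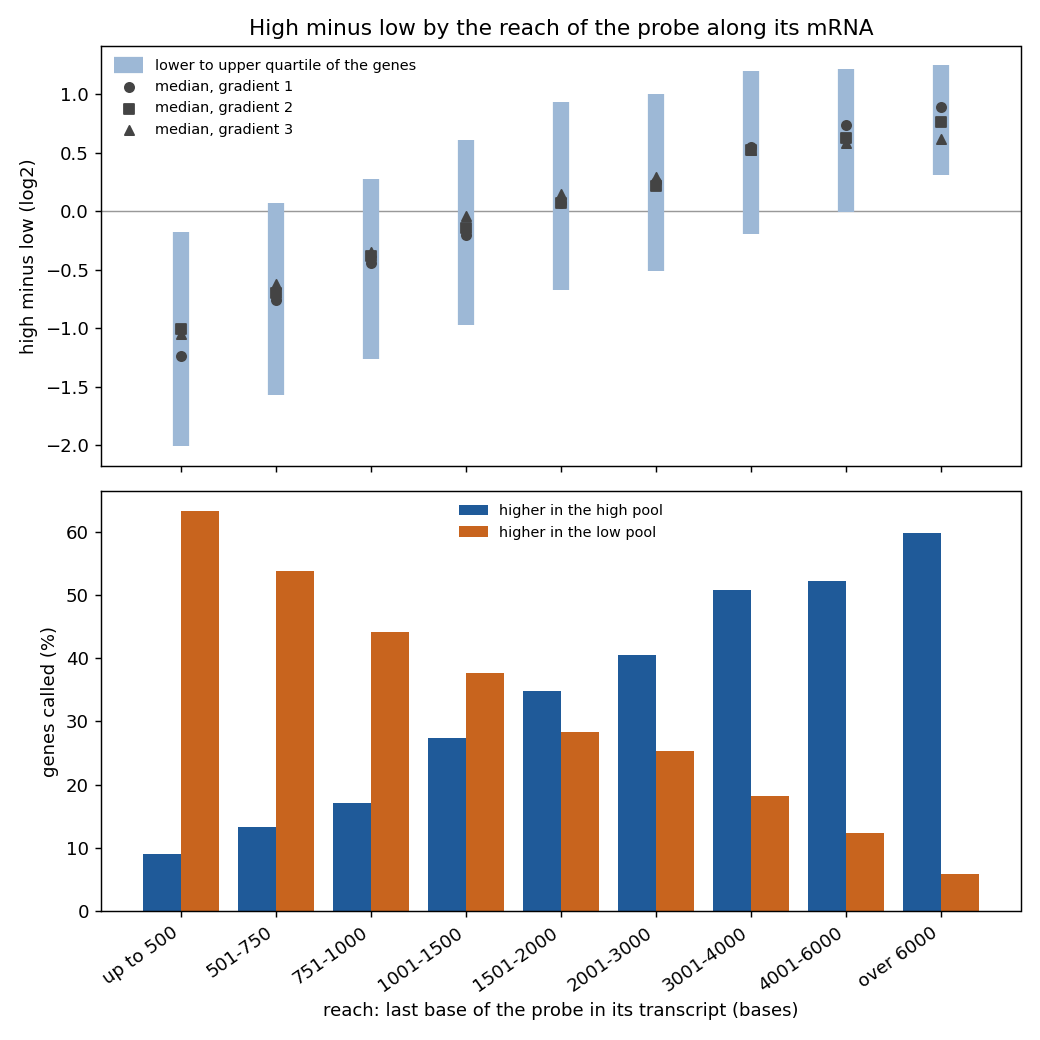
The upper panel gives the high minus low difference (log2) against the reach of the probe in bases, with bars from the lower to the upper quartile of the genes of each class and points for the median of each gradient. The lower panel gives the percentage of genes higher in each pool, which runs from 63.3% toward the low pool in the shortest class to 59.8% toward the high pool in the longest.

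The position of a probe within one mRNA was measured separately. For 576 transcripts with probes at least 500 bases apart (median gap 1645 bases), the 5′ probe differed from the 3′ probe by a median of -0.09, and the 2 probes correlated with r = 0.883. Their calls were opposite in 7 transcripts. In the OS gradients, rho between reach and the difference was 0.422, 0.317 and 0.397. The third OS gradient contains a low array that stands apart from the rest of its group. Without it the OS values were 0.422 and 0.317.

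Gene families were then placed on this scale. A family is described by how many of its tested members were called in each direction and by its median difference. Over all genes 34.6% were called toward the high pool and 31.0% toward the low pool, with a median of 0.08. Of 35 families, 15 had a median above that of all genes, and the number was also 15 under each processing alternative. The lists of chaperonin subunits, glycolytic enzymes and import translocases were drawn up after the values were seen. Chaperonin subunits and glycolytic enzymes are among the 15. The median of all mRNA probes itself moved from 0.03 to -0.56 without normalisation and to 0.53 with scaling to the 75th percentile, so a family is called heavy or light relative to the other genes. Of 1013 genes with several tested probes, 30 had probes called in opposite directions.

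**Figure D3:**
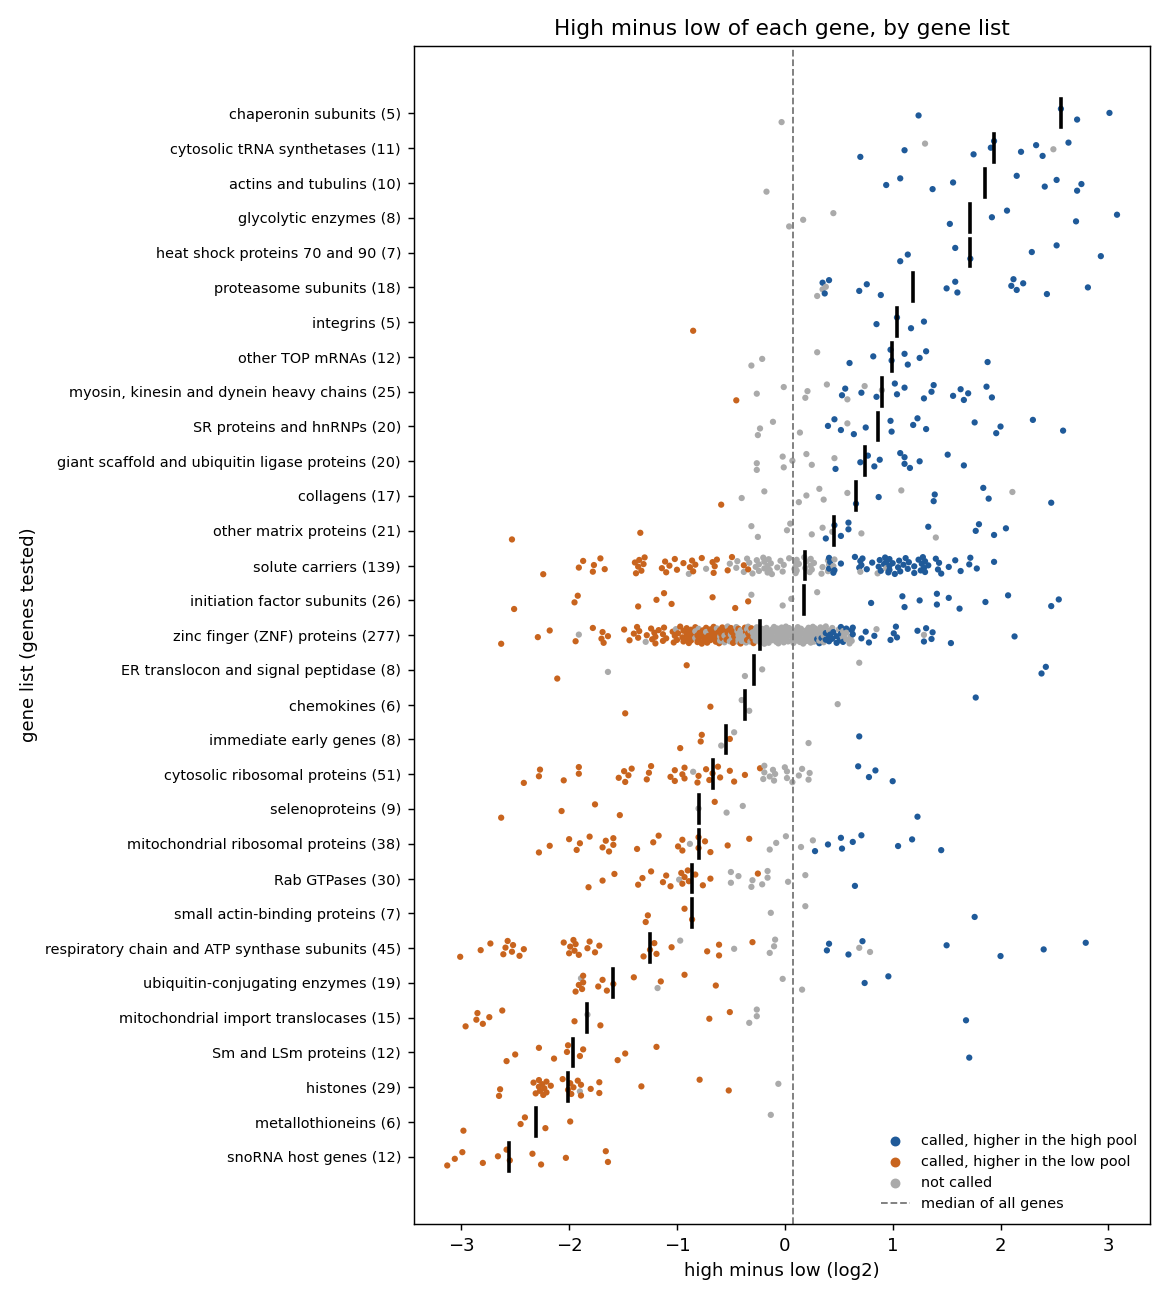
High minus low difference (log2, horizontal axis) of each tested gene, by gene list (vertical axis, with the number of genes tested). Blue points were higher in the high pool, orange points higher in the low pool and grey points were not called. Black bars are list medians and the dashed line is the median of all genes (0.08). Medians run from -2.56 for snoRNA host genes to 2.56 for chaperonin subunits, a list drawn up after the values were seen.

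Families on the heavy side included the machinery for folding and degrading proteins. Chaperonin subunits form the ring that folds actin and tubulin, and 4 of 5 were higher in the high pool, with CCT8 at 3.01. That list was drawn up after the values were seen. All 7 transcripts of the HSP70 and HSP90 families were higher in the high pool (median 1.72). HSP90AA1, the inducible cytosolic HSP90, had 17.93, 17.91 and 17.79 in the high pool and 14.99, 15.04 and 14.79 in the low pool. One of the 7, HSP90AB2P, is a pseudogene whose probe may read HSP90AB1. Of 18 proteasome subunits, 15 were higher in the high pool and 0 in the low pool (median 1.19).

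Within the proteasome the parts of the complex lay apart. The 7 subunits of the proteolytic core (PSMA and PSMB) differed by 0.30 to 0.89, with a median of 0.38. The 11 subunits of the regulatory particle (PSMC and PSMD) differed by 0.37 to 2.81, with a median of 2.10. PSMD2, a large scaffold subunit, had 15.72, 15.51 and 15.21 in the high pool against 12.74, 12.78 and 12.50 in the low pool. This split was noticed in the values and was not tested.

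Cytosolic aminoacyl-tRNA synthetases, which charge tRNAs with amino acids, had a median of 1.94. Of these, 9 of 11 were higher in the high pool and 0 in the low pool. The 2 not called, HARS1 and IARS1, differed by 2.49 ± 1.84 (SE) and 1.30 ± 2.24. Of the actins and tubulins, 9 of 10 were higher in the high pool (median 1.86), led by TUBB at 2.75, although the near-identical sequences of tubulin genes may share signal. Glycolytic enzymes had a median of 1.72 with 5 of 8 higher in the high pool. Among SR proteins and hnRNPs, which bind pre-mRNA, 15 of 20 were higher in the high pool (median 0.86), and HNRNPA2B1 reached 2.58.

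Families of long structural mRNAs were set beside all coding genes with a reach over 1500 bases. Of those genes 45.5% were higher in the high pool. The families reach farther, with a median of 6095 bases for myosin, kinesin and dynein heavy chains and 13337 for giant proteins. Over 6000 bases 59.8% of coding genes were higher in the high pool, near the 64% and 60% of these lists. Of 25 myosin, kinesin and dynein heavy chains 16 were higher in the high pool and 1 in the low pool (median 0.90), and the median member lay 0.15 above its reach class. Of 20 giant scaffold and ubiquitin ligase proteins 12 were higher in the high pool and 0 in the low pool (median 0.74), with the median member at -0.01 relative to its class. DST differed by 0.88 (0.67 and not called as the mean of its probes) and HUWE1 by 0.70 (0.30 and not called without normalisation), while SPTAN1 differed by -0.01 (adjusted p = 0.9587). DYNC1H1, the heavy chain of cytoplasmic dynein, differed by 0.53, a sign that turned to -0.06 without normalisation.

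Collagens, the main fibres of the fibroblast matrix, had 7 of 17 genes higher in the high pool and 1 in the low pool (median 0.66). This share of 41.2% is below the 45.5% of genes with a reach over 1500 bases and the 52.2% of those between 4001 and 6000. The median reach of the list was 5256 bases, and the median member lay 0.12 above its class. COL1A1 had 17.39, 17.27 and 16.97 in the high pool against 15.34, 15.41 and 15.22 in the low pool, a difference of 1.89 ± 0.12 (SE, adjusted p = 4.453e-07). COL6A1 differed by 2.47 and COL3A1 by 1.38. Among other matrix proteins 10 of 21 were higher in the high pool, with the median member at -0.21 relative to its class, and LAMA4, a laminin chain, lay at -2.53 with a probe that ends at position 691 of its transcript.

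Several families of mitochondrial and nuclear proteins lay on the light side. Of 45 respiratory chain and ATP synthase subunits, 30 were higher in the low and 8 in the high pool (median -1.25). The median member lay at -0.60 relative to its reach class. The family spanned a wide range, from UQCR10 at -3.01 to ATP5F1B at 2.79. ATP5F1B, the catalytic beta subunit of ATP synthase, had 16.26, 15.91 and 15.65 in the high pool and 13.14, 13.30 and 13.03 in the low pool. UQCR10 had 13.36, 13.73 and 13.56 in the high pool and 16.44, 16.45 and 16.78 in the low pool. The large subunits ATP5F1A and NDUFS1 also lay on the heavy side, at 2.40 and 2.00.

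Mitochondrial import translocases had 10 of 15 genes on the light side and 1 on the heavy side (median -1.83), with TIMM8B at -2.96 and TOMM70, a large receptor of the outer membrane, at 1.68. Of 12 Sm and LSm proteins, the small ring proteins of spliceosomal RNPs, 11 were higher in the low pool. SNRPD2 differed by -2.58, and the exception, SNRPB, by 1.71. Of 29 histones 27 were higher in the low and 0 in the high pool (median -2.01). Most histone mRNAs lack a poly(A) tail, and how that affected their labelling was not tested. Metallothioneins (5 of 6, median -2.31) and S100 proteins (3 of 3, median -2.24) were higher in the low pool, and the metallothionein genes are close copies whose probes may share signal.

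Rab GTPases were light also where the probe lay far along the mRNA. Among Rab GTPases, small switches of membrane traffic, 18 of 30 were higher in the low and 1 in the high pool (median -0.86). For the 17 with a reach over 1500 bases the median was -0.90, and 11 were higher in the low and 0 in the high pool. All 4780 coding genes with that reach had a median of 0.43, with 20.1% of them called toward the low and 45.5% toward the high pool. RAB31, with a reach of 3730 bases, had 11.36, 11.48 and 11.52 in the high pool and 13.22, 13.13 and 13.46 in the low pool.

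Ubiquitin-conjugating enzymes, which pass ubiquitin to target proteins, had 13 of 19 genes called toward the low pool and 2 toward the high pool (median -1.59). Their probes lay nearer the 5′ end, with a median reach of 1133 bases against 2047 for all coding genes with a reach. Of the 7 with a reach over 1500 bases, 3 were called toward the low pool and 2 toward the high pool. UBE2D4, with a reach of 3940 bases, differed by -1.94. UBE2O and UBE2Z were the 2 that were higher in the high pool, at 0.74 and 0.96. UBE2Q2, with a reach near that of UBE2Z (3029 against 3054 bases), differed by -1.65. Relative to the median of its reach class, the median member lay at -1.18 among ubiquitin-conjugating enzymes and at -0.86 among Rab GTPases.

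**Figure D4:**
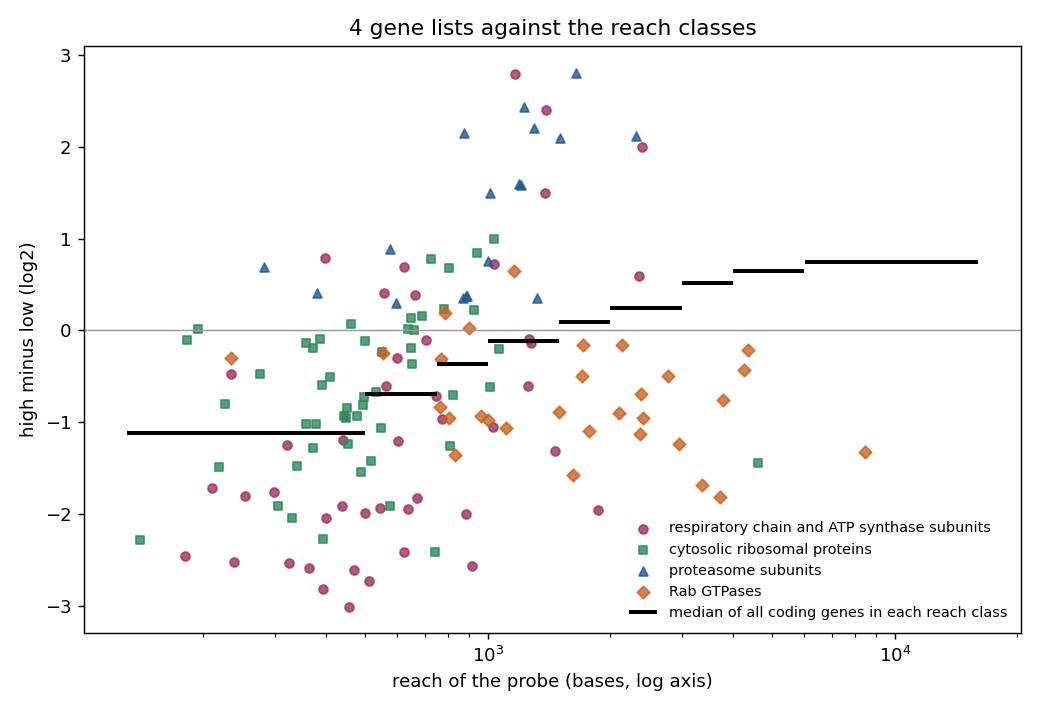
High minus low difference (log2) of 4 gene lists against the reach of the probe (bases, log axis), with black bars for the median of all coding genes in each reach class. Proteasome subunits lie above the bars (median 1.65 above their class), most Rab GTPases below (median -0.86), and respiratory chain subunits span from -3.01 to 2.79.

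Larger and mixed families lay nearer to the middle. Of 277 zinc finger (ZNF) proteins, mostly transcription factors, 98 were called toward the low pool and 35 toward the high pool (median -0.23), and the median member lay at -0.41 relative to its reach class. Of 139 solute carriers, 53 were called toward the high pool and 34 toward the low pool (median 0.19). Their share of 38.1% called toward the high pool is near the 34.6% of all genes. The median member lay at -0.11 relative to its reach class. Of the 5 integrins of the list, 4 were called toward the high pool (median 1.04), but the list does not hold ITGAE, which lay at -3.20. Small actin-binding proteins (4 of 7 light, median -0.86), selenoproteins (5 of 9 light, median -0.80) and immediate early genes (4 of 8 light, median -0.55) each had 1 member called toward the high pool. Relative to its reach class, the median member of these lists lay at -0.01, -1.07 and -0.63, in the same order. Small actin-binding proteins were thus not light for their reach.

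The mRNAs of the translation apparatus did not lie together. Many of them start with a terminal oligopyrimidine (TOP) tract, a C followed by pyrimidines, through which the mTOR pathway controls their translation. Of 51 cytosolic ribosomal proteins, 31 were higher in the low and 4 in the high pool (median -0.67). Of 12 other TOP mRNAs, 9 were higher in the high pool and 0 in the low pool (median 0.99). A start with C and then 4 letters that are each C or T was present in 4.04% of 27305 RefSeq promoters, read on the strand of the gene. It was found in 28 of 41 tested ribosomal protein genes and 7 of 8 other TOP genes with an entry.

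Start sites of list members that have such a start are shown to compare like starts with unlike positions. They are the called members farthest to the side of their list that have it, so the capitals match by selection. Members farther out without such a start or an entry were passed over, as were RPL23A (-2.42), RPS29 (-2.28) and HNRNPA1 (1.31). Each window runs from 10 bases before the annotated start to 20 bases from it (RefSeq, GRCh38.p14), and capitals mark the first 5 transcribed bases. The first 3 belong to ribosomal proteins on the light side and the last 3 to other TOP mRNAs on the heavy side. Between them stand 3 snoRNA host genes, from the list with the lowest median. Of 9 snoRNA host genes with an entry, only these 3 had such a start.
RPL29 (chr3:51995876-51995905, minus strand): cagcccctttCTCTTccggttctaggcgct
RPL39 (chrX:119791611-119791640, minus strand): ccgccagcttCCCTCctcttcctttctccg
RPS21 (chr20:62387093-62387122, plus strand): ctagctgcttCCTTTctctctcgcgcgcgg
ZFAS1 (chr20:49278632-49278661, plus strand): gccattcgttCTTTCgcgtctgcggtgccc
SNHG12 (chr1:28581854-28581883, minus strand): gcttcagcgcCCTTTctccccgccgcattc
SNHG18 (chr5:9546190-9546219, plus strand): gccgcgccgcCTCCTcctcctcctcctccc
EEF2 (chr19:3985444-3985473, minus strand): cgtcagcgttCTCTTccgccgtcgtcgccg
RACK1 (chr5:181243887-181243916, minus strand): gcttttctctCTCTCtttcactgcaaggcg
NAP1L1 (chr12:76084666-76084695, minus strand): gctcttgggtCTTTTttagcgccatctgct

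RPL29 and EEF2 shared the same first 5 bases and lay on opposite sides. RPL29, a small protein of the large ribosomal subunit, had 13.99, 14.32 and 14.35 in the high pool and 16.49, 16.40 and 16.55 in the low pool, a difference of -2.27 ± 0.12 (SE, adjusted p = 1.821e-07). EEF2, the elongation factor that moves the ribosome along, had 15.63, 14.79 and 15.49 in the high pool and 13.50, 13.24 and 13.54 in the low pool, a difference of 1.88 ± 0.31 (SE, adjusted p = 0.0003978). The pools did not overlap for either gene, as for 77.6% of all tested mRNA probes.

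RACK1, a scaffold protein on the small subunit, differed by 1.25 and NAP1L1, a histone chaperone, by 1.14. Without normalisation both calls were lost, at 0.06 and 0.33. The 4 ribosomal protein mRNAs higher in the high pool were RPL4 (1.00), RPL3 (0.84), RPL5 (0.78) and RPL14 (0.68), but the signs of RPL4 and RPL3 turned without normalisation, to -0.05 and -0.07. Compared with coding genes of the same reach class, ribosomal proteins lay 0.31 higher as a median, and 18 of 51 lay below their class. PABPC1, the poly(A)-binding protein, differed by 0.82, and by -0.40 without normalisation. EEF1A1 was the brightest mRNA probe on all 3 high arrays, where quantile normalisation gave it the same value of 18.94, so its difference of 0.60 is limited by that ceiling. It was 0.08 and not called without normalisation.

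Initiation factors and related genes were divided, with 12 of 26 higher in the high pool and 10 in the low pool (median 0.18). The large scaffold EIF4G1 and the eIF3 subunit EIF3B lay on the heavy side, at 1.52 and 2.54. The small factors EIF1B and EIF4E, the cap-binding protein, lay on the light side, at -2.51 and -1.95. EIF4G2 and EIF3J, with a reach of 3151 and 2464 bases, were also called toward the low pool, at -0.46 and -1.12. Mitochondrial ribosomal proteins, whose mRNAs are translated in the cytosol, had 23 of 38 called toward the low pool and 9 toward the high pool (median -0.80). The median member lay at -0.21 relative to its reach class.

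ATF4 carries upstream reading frames that keep ribosomes from its coding sequence in unstressed cells. Its signal was 15.71, 15.60 and 15.66 in the high pool and 16.83, 16.55 and 16.77 in the low pool, a difference of -1.06 ± 0.11 (SE, adjusted p = 1.406e-05). SLC35A4, which also has a long upstream frame, differed by -1.77, and PPP1R15B by 0.27. FTH1, whose translation iron controls, had 3 probes that disagreed, at -0.69, -0.33 and 0.60. Their mean differed by -0.14 (adjusted p = 0.3045), so no direction is given.

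Catalog genes without a coding accession lay mostly on the light side. The custom lncRNA probes were normalised apart, so their balance cannot be set against that of these genes. Above background on all 6 arrays, 2411 of these probes were called toward the high and 2382 toward the low pool. As pairs, 812 were called toward the high and 969 toward the low pool. With both probe kinds normalised together, 26.9% of the calls among all tested lncRNA probes were toward the high pool. Of 448 catalog genes with only a non-coding RefSeq accession, 243 (54.2%) were higher in the low and 38 (8.48%) in the high pool, with a median of -0.88. With only genes above background on all 6 arrays, 190 of 359 (52.9%) were called toward the low pool and 33 (9.19%) toward the high pool. For 7393 coding genes the shares were 29.6% and 36.2%, with a median of 0.14. The median of the non-coding genes was -0.86, -0.80 and -0.92 in the 3 gradients, and that of the coding genes was 0.12, 0.12 and 0.15.

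All 12 snoRNA host genes, whose introns give rise to small nucleolar RNAs, were higher in the low pool (median -2.56). ZFAS1 had 12.15, 12.15 and 11.85 in the high pool and 15.28, 14.99 and 15.24 in the low pool, and a mean of 15.89 ± 0.07 (SD, n = 3) in the untranslated pool. Replicates 1 and 2 of that pool share a label number, so they may not be separate samples. GAS5 differed by -2.26, with a mean of 17.02 ± 0.06 in the untranslated pool. MALAT1, a nuclear lncRNA, was well above background on 2 of the 3 high arrays and differed by -1.22 ± 0.71 (SE, adjusted p = 0.1615). With the replicate block the difference was -1.34 (adjusted p = 0.0005051 in limma), and it was -1.47, -1.08 and -1.13 in the 3 gradients.

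Custom lncRNA probes came in pairs, which gives a check of each transcript. Both probes were tested for 4599 transcripts, and their differences correlated with r = 0.945. Both were higher in the low pool for 1648 transcripts, both higher in the high pool for 917, and they were called in opposite directions for 12. With both probes above background on all 6 arrays, 969 pairs were called toward the low pool and 812 toward the high pool. The 3 heaviest transcripts by this rule were ENST00000562038.1 (mean of the 2 probes 3.69), ENST00000593427.1 (3.69) and ENST00000515055.1 (3.62), and 1 probe of the last is identical to the catalog probe of the coding gene KPNA6. Both probes of ENST00000562038.1 are identical to probes of another lncRNA transcript, so its value may belong to either. The 3 lightest were ENST00000542172.1 (-2.53), ENST00000515205.1 (-2.45) and ENST00000513179.1 (-2.42).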

How the data were processed

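RNA of MRC5 cells from polysome pools was hybridised to 1-colour arrays. The authors deposited the intensity of each spot from Feature Extraction 10.7.3.1, already background-subtracted, and a table of log2 values, used as an alternative. The log2 intensity was quantile-normalised here separately for mRNA and lncRNA probes over the 12 control arrays, without 178 probes marked as outliers. No spot was saturated. High was compared with low by limma 3.58.1 in R 4.3.3 in a model of 4 groups, with Benjamini-Hochberg adjustment over all tested probes. Current symbols were matched by RefSeq accession for 13000 of 17535 catalog probes, and the probe with the highest mean stood for a gene. Genes of the Y chromosome were left out of the families.

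Named genes were the 10 most positive and 10 most negative separated coding genes, up to 3 list members in each direction, fixed names (16 of 33 tested), and 3 lncRNAs in each direction. Other list members were named after their values were seen. The gene lists and members were chosen with earlier results of these data known, and the lists of glycolytic enzymes, chaperonin subunits and import translocases, like the reach classes, were chosen after seeing the values. The planned relation with protein length was not run, for want of protein lengths, and reach replaced it.

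Replicate numbers mark gradient and slide. Deviations of same-numbered high and low arrays from their pool means correlated at 0.27, 0.13 and 0.28, so the numbers pair the arrays. The methods describe 3 runs with independent RNA preparations but do not say whether the cells came from separate cultures. So p-values measure the spread between arrays, whose number limits the precision. That spread is pooled over all 12 control arrays, including the untranslated pool with its shared label number. A gene can go uncalled though its gradients lie close, as HARS1 did (2.48, 2.34 and 2.65, with SE 1.84). The fitting steps were tested on simulated data.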

Additional observations from a re-analysis of the deposited data

How the results depend on the processing

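Without normalisation, 1931 mRNA probes were higher in the high pool and 4903 in the low pool, and for lncRNA probes 386 and 7323. There the median of all mRNA differences was -0.56, and DYNC1H1 (-0.06), PABPC1 (-0.40), RPL4 (-0.05) and RPL3 (-0.07) changed sign. Scaling to the 75th percentile left 1956 mRNA probes higher in the low pool, with a median of 0.53. The lncRNA probes higher in the high pool were 1627 with both kinds normalised together, 1543 after normexp, 1608 in the authors' table, 1586 in the fit of all 24 arrays and 1650 as means per transcript. Those higher in the low pool were 2382 when above background on all 6 arrays was required, against 2411 in the high pool, and 2248 as means per transcript. The cause was not tested, except that the last 2 alternatives test fewer features.

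A fit of the 6 arrays alone called 3944 mRNA probes toward the high and 3640 toward the low pool, and 3300 and 4389 lncRNA probes. With the replicate block added to that fit, 4031 and 3782 mRNA probes and 3662 and 4599 lncRNA probes were called. Of the 13161 calls of the main fit, 12985 kept their direction there. Leaving out single arrays gave 2927 to 3090 and 2919 to 3109 mRNA probes, and 2155 to 2562 and 3578 to 3827 lncRNA probes. The Spearman correlation of reach with the fitted difference was 0.409, with 0.397 to 0.419 when single arrays were left out and 0.459 for genes in the upper part of the signal. FTH1 lost its call under 12 alternatives, with adjusted p up to 0.3274. The counts of non-coding genes and lncRNA pairs above background on all 6 arrays were chosen after seeing the data. No family changed sides where its median lay farther from that of all genes than the spread between gradients. Over all families and alternatives, 555 such medians moved by less than that spread and 110 moved by at least as much. The relation with protein length was not run.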
